A study of Rattus norvegicus and Mus musculus with 22 samples.

Results

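The mitosis genes are a list of 38 genes whose products condense, align and separate chromosomes and split the cell, chosen by symbol and followed through 22 RNA-seq libraries. Of the 38, 37 had a row in each of the 4 count tables. Ccnb2 was not listed under that symbol in the rat tables, which hold 22081 symbols each, and Kif4a was not listed in the mouse table, which holds 25683. The 16 rat libraries came from animals given the Sugen-Hypoxia treatment, a model of pulmonary hypertension that joins a VEGF receptor inhibitor with low oxygen, and no untreated animals were analysed here. Whole lung was sampled at day 56 from IL6KO rats (3 libraries) and wild-type (WT) rats (3 libraries), and at day 7 from IL6KO rats (3 libraries) and WT rats (3 libraries). CD4-positive cells were isolated magnetically from day 7 lung of IL6KO rats (2 libraries) and WT rats (2 libraries). IL6KO rats lack interleukin 6, a cytokine that signals through gp130. The last 6 libraries are mouse splenic CD4 T cells sorted by flow cytometry into tdTomato-positive (3) and tdTomato-negative (3) fractions of the same mice. These mice carry Ai14, which turns on tdTomato permanently after Cre has acted, and SM22alpha-Cre, driven by a smooth muscle promoter. The spleen labels name no Sugen-Hypoxia treatment.

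A cell enters mitosis when cyclin B binds the kinase Cdk1, and leaves it when the anaphase-promoting complex marks cyclin B for destruction. Most of these genes are switched on together late in the cell cycle. The DREAM repressor complex keeps them silent in resting cells, and B-MYB and FOXM1 activate them in dividing ones. Their RNA in a tissue therefore tracks how many cells are dividing. In the remodelled lung of pulmonary hypertension, endothelial, smooth muscle, fibroblast and immune cells can all divide. In bulk samples, fewer dividing cells and less RNA per dividing cell cannot be told apart.

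Most of the promoters shared the letters of a pair of short motifs. In this class of gene, DREAM and its activators bind the CHR element, searched here as TTTGAA or TTTAAA, and the factor NF-Y binds CCAAT boxes. Both were searched on both strands in the RefSeq rat promoters (GRCr8, 250 bases before to 50 after the annotated start). A promoter was found for 31 of the 38 genes. The CHR letters were in 28 of these 31 windows (90.3%), against 28.3% of all 33469 rat promoters and 19% of the 10755 promoters of genes tested in day 7 lung. CCAAT was in 23 (74.2%), against 37.5% of all promoters, and 17 (54.8%) held at least 2 copies, against 11.2%. Both motifs occurred in 21 (67.7%), against 11.3%. A CHR lay within 75 bases of the start in 24 (77.4%), against 11.1%. Among 53 promoters of other mitosis genes, 69.8% held a CHR and 64.2% a CCAAT box. A match is a description of the letters and not a binding site. The stretches below, from position -110 to position 20 around the start, belong to genes on which the results turn. Capitals mark CHR and CCAAT letters on either strand, so that TTCAAA and ATTGG are the reverse forms.
Ccnb1, chr2:33655206-33655335, minus strand: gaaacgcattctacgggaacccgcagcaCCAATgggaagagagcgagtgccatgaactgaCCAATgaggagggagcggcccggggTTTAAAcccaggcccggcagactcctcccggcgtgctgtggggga
Cdk1, chr20:19265183-19265312, plus strand: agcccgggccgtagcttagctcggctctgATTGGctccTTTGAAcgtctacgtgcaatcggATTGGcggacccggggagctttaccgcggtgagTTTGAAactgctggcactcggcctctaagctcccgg
Top2a, chr10:84473074-84473203, minus strand: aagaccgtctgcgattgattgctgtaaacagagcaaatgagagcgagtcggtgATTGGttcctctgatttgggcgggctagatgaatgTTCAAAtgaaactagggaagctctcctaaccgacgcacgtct
Prc1, chr1:143659371-143659500, plus strand: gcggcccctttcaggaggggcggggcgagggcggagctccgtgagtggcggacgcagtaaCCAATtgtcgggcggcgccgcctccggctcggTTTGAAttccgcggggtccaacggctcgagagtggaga
Bub1b, chr3:126016957-126017086, plus strand: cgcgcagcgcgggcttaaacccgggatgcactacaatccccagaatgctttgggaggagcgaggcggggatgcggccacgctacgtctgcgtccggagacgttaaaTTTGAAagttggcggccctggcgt
Anln, chr8:29197494-29197623, minus strand: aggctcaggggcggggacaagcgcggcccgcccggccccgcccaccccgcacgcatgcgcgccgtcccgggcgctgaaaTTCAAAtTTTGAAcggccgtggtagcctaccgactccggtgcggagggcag
Kif4a, chrX:69761773-69761902, plus strand: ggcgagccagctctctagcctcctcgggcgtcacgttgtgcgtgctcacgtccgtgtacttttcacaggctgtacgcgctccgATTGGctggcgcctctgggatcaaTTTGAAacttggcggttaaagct
Within these stretches, Ccnb1 carries 2 CCAAT boxes at -82 and -50 upstream of a CHR at -25. Cdk1 has CCAAT boxes in reverse at -81 and -49 and a CHR at -72 and at -16. Anln has 2 CHRs, at -31 and -24, and no CCAAT box in its window. Bub1b has a single CHR at -4 and no CCAAT box. Kif4a, which departs from the other genes in the day 56 lungs, has both motifs, with a reverse CCAAT box at -27 and a CHR at -3. Melk was the only window of the 31 with neither motif.

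**Figure D1:**
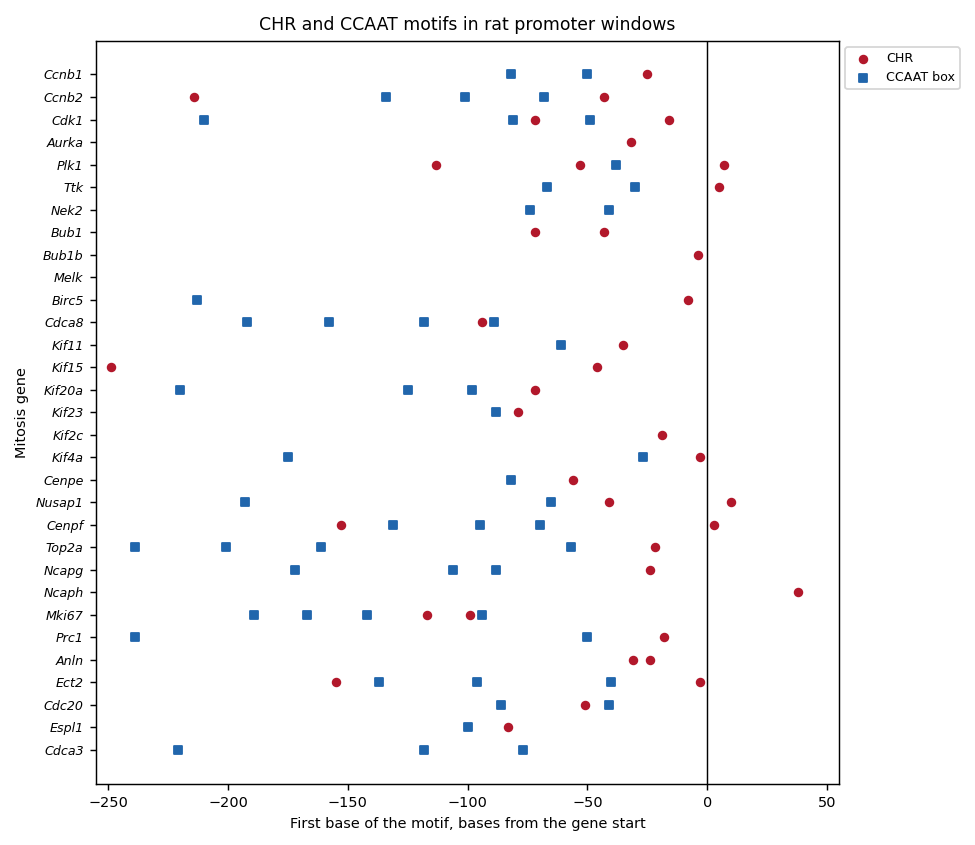
Position of CHR (red circles) and CCAAT (blue squares) letters in the 31 rat promoter windows, in bases from the annotated start, 1 gene per row. The CHRs cluster within 75 bases of the start in 24 of 31 windows, with the CCAAT boxes mostly further upstream.

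Total counts per library ran from 8737138 in spleen to 23590070 in day 7 lung. No label says that same-group rats are separate animals, so p-values measure the spread between these samples. Il6 itself had 0 to 3 counts in IL6KO day 56 lungs and 5 to 6 in WT, and 2 to 8 in IL6KO day 7 lungs against 5 to 11 in WT, which checks the genotype only weakly. In the CD4 isolates it had 8 to 17 counts in IL6KO against 20 to 48 in WT. Every pair of replicates differed beyond sampling noise (chi-square per degree of freedom 8.36 to 38.1). The CD4 isolates carried RNA of other cells beside that of T cells. Cd4 had 741 to 782 CPM in IL6KO and 598 to 642 CPM in WT isolates, against 23.4 to 32.1 CPM in IL6KO and 18.9 to 23.5 CPM in WT lungs at day 7. The T cell gene Cd3e had 449 to 497 CPM (counts scaled to a common library total) in IL6KO and 613 to 618 CPM in WT isolates. In whole lung at day 7 it had 6.34 to 7.95 CPM in IL6KO and 5.73 to 9.07 CPM in WT. The macrophage gene Lyz2 had 6441 to 9684 CPM in IL6KO and 6283 to 6760 CPM in WT isolates. Day 7 lungs had more of it, 15837 to 20711 CPM in IL6KO and 15466 to 17631 CPM in WT. Csf1r, another macrophage gene, had 1532 to 1541 CPM in IL6KO isolates against 870.0 to 899 CPM in WT isolates. Day 7 lungs had less Csf1r, 281 to 301 CPM in IL6KO and 278 to 284 CPM in WT. Cd8a had 11.0 to 13.4 CPM in IL6KO isolates against 96.1 to 128 CPM in WT isolates. The spleen fractions held Lyz2 at 7.48 to 23.0 CPM. The day 56 table shares 20230 symbols with the day 7 lung table, and Rpl8, a ribosomal protein gene, is at 0 in all day 7 rat libraries but at 417 to 625 CPM at day 56. Day and count table therefore cannot be told apart. In the rat annotation Plk1, Kif15, Ncapg, Foxm1, Cdca3, Kif11, Nusap1, Kif20a, Aurka, Anln and Kif4a overlap protein-coding genes. Espl1 (by 2337 bases) and Pbk overlap long non-coding RNAs, Prc1 and Tpx2 snoRNAs, and Ect2 a pseudogene. With no strand stated, the counts of all these genes are uncertain.

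The mitosis genes summed to 286 to 346 CPM in IL6KO and 295 to 370 CPM in WT lungs at day 56, and to 593 to 786 CPM in IL6KO and 910.0 to 1020.3 CPM in WT lungs at day 7. They summed to 783 to 798 CPM in IL6KO and 660.3 to 885 CPM in WT CD4 isolates. The splenic T cells lay lowest, at 193 to 217 CPM in tdTomato-positive and 144 to 200 CPM in tdTomato-negative cells. G1/S and DNA replication genes, 43 to 45 of which were listed, summed to 544 to 656 CPM over the day 56 lungs and 695 to 939 CPM over the day 7 lungs. Those genes summed to 1564 to 1814 CPM in CD4 isolates and 1331 to 1497 CPM in spleen. The ratio of the mitosis sum to the G1/S sum was 0.49 to 0.53 in IL6KO and 0.45 to 0.58 in WT lungs at day 56. It was 0.85 to 0.99 in IL6KO and 1.05 to 1.16 in WT lungs at day 7, without overlap. The ratio was 0.49 to 0.50 in IL6KO and 0.41 to 0.49 in WT isolates, and 0.13 to 0.15 in tdTomato-positive and 0.11 to 0.14 in tdTomato-negative spleen cells. Sums of genes differ in what each table lists, so levels across tables stand side by side only.

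**Figure D2:**
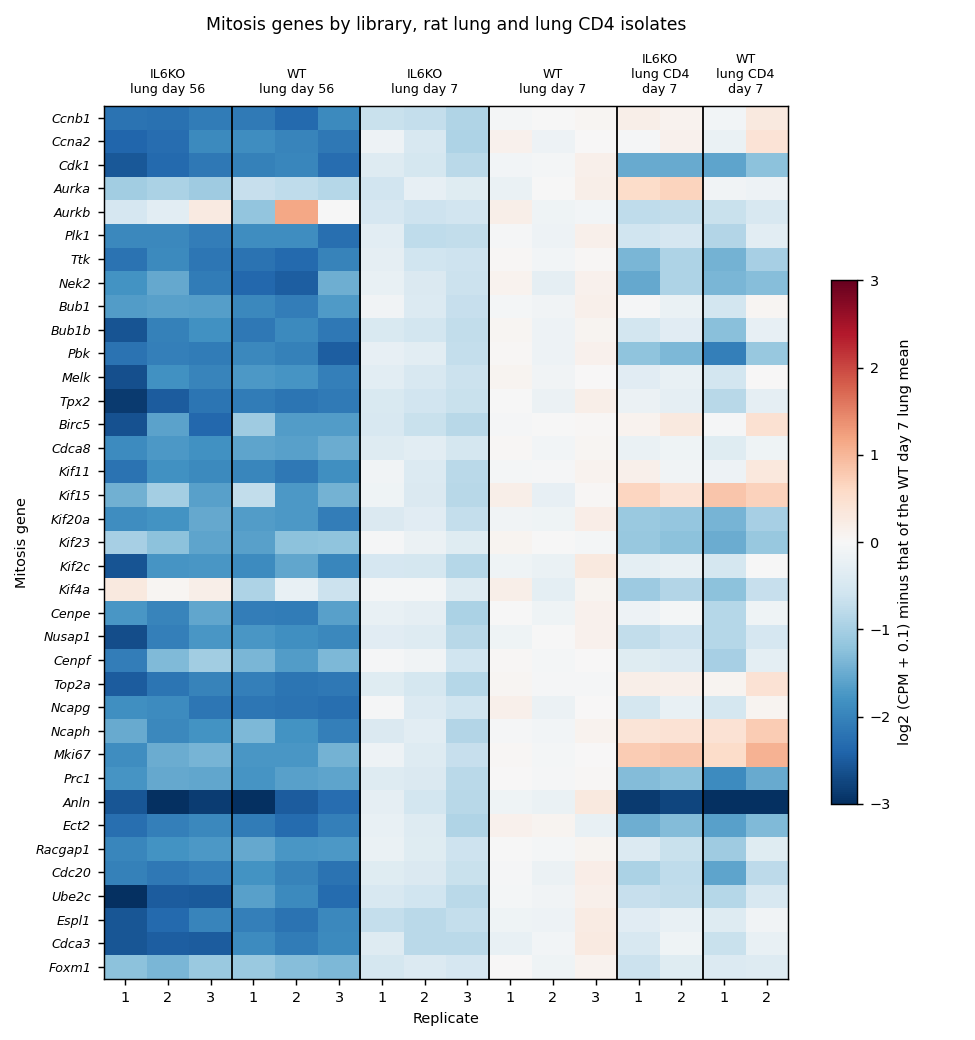
Each cell is 1 gene in 1 rat library, as log2 (CPM + 0.1) minus that of the mean of the 3 WT day 7 lungs, from 3 below (blue) to 3 above (red). Both day 56 groups are blue for nearly all genes, Aurkb and Kif4a excepted, and the IL6KO day 7 lungs are paler blue. In the CD4 isolates Mki67, Kif15 and Ncaph are pale red and Anln is dark blue.

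Mitosis genes were lower at day 56 than at day 7 in both genotypes, across every role group. In IL6KO lung 35 of 37 genes fell, with a background of 4.92% lower among all genes tested, and in WT lung 36 of 37 fell, with a background of 8.05%. The median log2 change was -1.49 in IL6KO and -1.97 in WT, against medians of 0.03 in IL6KO and 0.01 in WT over all genes. In each genotype all day 56 libraries lay below all day 7 libraries for 35 of 37 genes, against 10.7% of all genes in IL6KO and 14.1% in WT. Top2a, which untangles DNA before chromosomes separate, had 14.1, 17.4 and 20.03 CPM in IL6KO lungs at day 56 against 62.1, 55.4 and 44.4 CPM at day 7. In WT lungs the gene had 19.2, 17.5 and 18.2 CPM at day 56 against 83.4, 78.7 and 78.8 CPM at day 7. No day 56 library reached the lowest day 7 library. The log2 changes were -1.69 (SE 0.13, adjusted p = 2.61e-06) in IL6KO and -2.16 (SE 0.13, adjusted p = 2.27e-07) in WT.

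Mki67, the proliferation marker that coats mitotic chromosomes, changed by -1.22 (SE 0.14) in IL6KO and -1.67 (SE 0.15) in WT. Ccnb1, cyclin B1, changed by -1.49 (SE 0.14) in IL6KO and -2.18 (SE 0.14) in WT. Its partner kinase Cdk1 changed by -1.82 (SE 0.14) in IL6KO and -2.11 (SE 0.14) in WT. Anln, which encodes the cleavage furrow scaffold anillin, had the most negative change in both, -2.41 (SE 0.25) in IL6KO and -2.65 (SE 0.25) in WT. Plk1, a kinase of centrosome maturation, changed by -1.45 in IL6KO and -2.03 in WT. Bub1, a kinase of the spindle checkpoint, changed by -1.32 in IL6KO and -1.94 in WT. Foxm1, the activating transcription factor, changed by -0.80 (SE 0.11) in IL6KO and -1.28 (SE 0.11) in WT. By role, the median change in WT ran from -1.28 for the transcription factor to -2.11 for the cyclins and their kinase. The log2 change was below -1 for 32 of 37 genes in IL6KO and 34 of 37 in WT, and below -2 for 2 genes in IL6KO and 17 in WT. It was more negative in WT than in IL6KO for 35 of 37 genes, a difference tested below as the genotype by day interaction. The day change and the genotype change share these libraries.

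Aurkb and Kif4a departed from the rest. Aurkb, the kinase of the chromosomal passenger complex, had 30.4, 35.0 and 52.3 CPM in IL6KO and 19.0, 97.4 and 42.8 CPM in WT lungs at day 56. At day 7 it had 30.7, 27.9 and 28.8 CPM in IL6KO and 48.8, 39.8 and 41.2 CPM in WT lungs. WT replicate 2 at day 56 stood above every other library. The day change was 0.39 (SE 0.47, adjusted p = 0.696) in IL6KO and 0.28 (SE 0.46, adjusted p = 0.737) in WT, and in WT it was -0.53 without that replicate. Aurkb's partners in the complex did not share its pattern: Birc5 (survivin) changed by -1.57 in IL6KO and -1.50 in WT, and Cdca8 (borealin) by -1.46 in IL6KO and -1.62 in WT. The gene next to Aurkb, Borcs6, had 15.9 to 18.4 CPM in IL6KO and 14.8 to 25.4 CPM in WT lungs at day 56. At day 7 Borcs6 had 13.2 to 17.1 CPM in IL6KO and 13.3 to 14.9 CPM in WT lungs. Kif4a, a motor that compacts chromosomes and organises the central spindle, had 28.6, 24.1 and 26.5 CPM in IL6KO and 12.3, 20.1 and 14.9 CPM in WT lungs at day 56. It had 22.4, 22.3 and 17.8 CPM in IL6KO and 26.2, 19.1 and 24.6 CPM in WT lungs at day 7. In IL6KO all 3 day 56 libraries were above all 3 at day 7 (0.30, SE 0.18, adjusted p = 0.36), while in WT the groups overlapped (-0.58, SE 0.18, adjusted p = 0.0494). The WT call of Kif4a was lost in 15 of 20 other settings, so 36 genes became 35. Kif4a overlaps Pdzd11 by 9 bases and a long non-coding RNA by 7959 bases in the rat annotation. Counting by strand is not stated, so the counts of Kif4a are uncertain. Pdzd11 had 31.2 to 33.1 CPM in IL6KO and 29.1 to 31.4 CPM in WT lungs at day 56, against 30.2 to 32.7 CPM in IL6KO and 32.8 to 35.9 CPM in WT lungs at day 7.

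**Figure D3:**
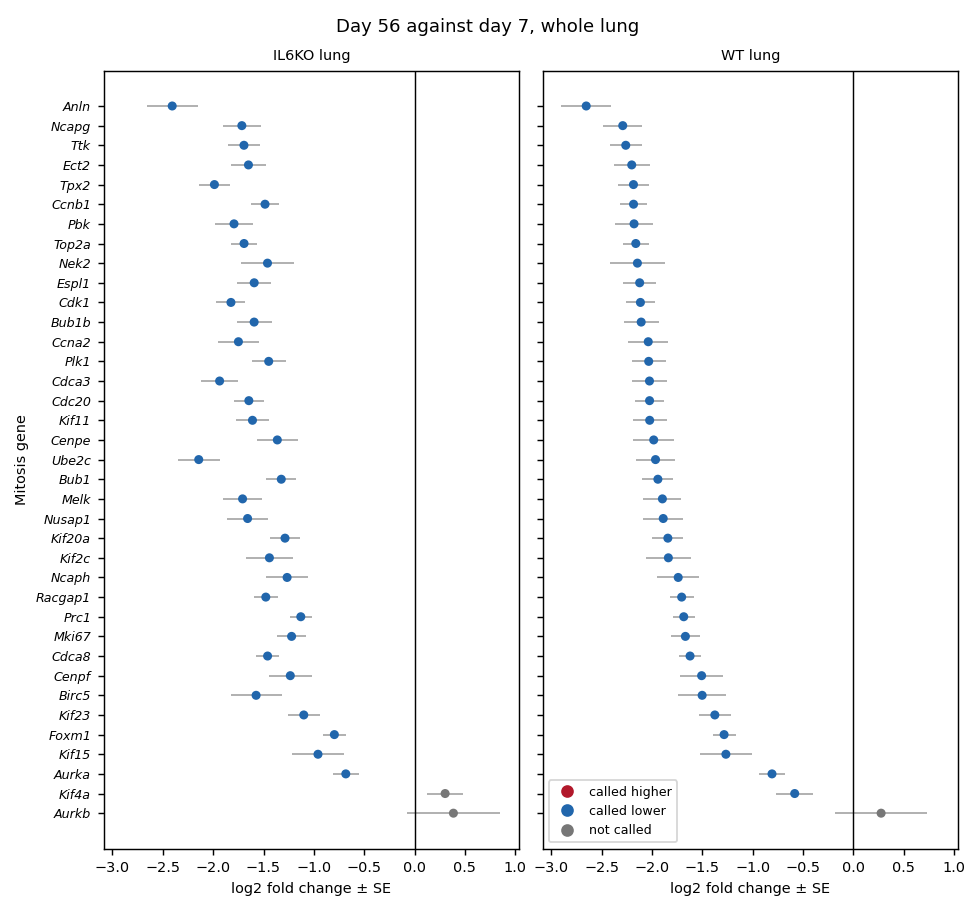
Log2 fold change of each mitosis gene at day 56 against day 7, with SE, in IL6KO lung (left) and WT lung (right), and calls in colour. Anln lies lowest in both, at -2.41 and -2.65. Aurkb and Kif4a lie above all other genes in both panels.

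Other genes of the cell cycle moved in part with them. Of 57 other mitosis genes tested, 44 fell in IL6KO and 50 in WT (medians -1.20 in IL6KO and -1.60 in WT). Of 43 G1/S and replication genes, 20 fell in IL6KO and 27 in WT, where 1 rose (medians -0.49 in IL6KO and -0.59 in WT). Among these Rrm2, a subunit of the enzyme that makes deoxynucleotides, changed by -1.91 in IL6KO and -2.50 in WT, and Tk1, thymidine kinase, by -1.43 in IL6KO and -1.77 in WT. Mitosis-related genes that vary little through the cell cycle stayed near 0, with medians of -0.06 in IL6KO and -0.11 in WT over 27 genes, of which 1 fell in IL6KO and 2 in WT. Of 21 inhibitor and quiescence genes 1 fell in IL6KO, and 3 fell and 1 rose in WT. Beside these changes, 8 fibroblast marker genes summed to 2422 to 2784 CPM in IL6KO and 2497 to 3043 CPM in WT lungs at day 56. At day 7, 9 of them summed to 5609 to 6722 CPM in IL6KO and 6664 to 8253 CPM in WT lungs. Erythroid markers (13 listed) summed to 719 to 2647 CPM in IL6KO and 308 to 888 CPM in WT lungs at day 56. At day 7 (15 listed) they summed to 10697 to 26786 CPM in IL6KO and 13699 to 14492 CPM in WT lungs. Of the 8 fibroblast genes tested 3 fell in each genotype, and of 12 erythroid genes 7 fell in IL6KO and 8 in WT. Smooth muscle markers summed to 1120 to 1397 CPM in IL6KO and 1319 to 1884 CPM in WT lungs at day 56, against 2016 to 2104 CPM in IL6KO and 2261 to 2467 CPM in WT lungs at day 7. Of these 10 genes 6 fell in IL6KO and 7 in WT. Of 9 CD8 T and NK cell markers none was called in IL6KO and 9 rose in WT. Of 10 B cell markers 1 rose in IL6KO and 8 in WT. Over all genes tested, 3.4% rose in IL6KO and 6.72% in WT. The part of these cell types in the result was not tested.

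At day 7, 11 of 37 mitosis genes were called lower in IL6KO than in WT lung, 29.7% of them, and none higher, with a background of 1.16% lower among 14368 genes. All 37 log2 changes were negative. The median was -0.49 (range -0.76 to -0.15), against 0.00 over all genes. An unadjusted p under 0.05 in edgeR was found for 33 of 37, and for 2045 of all 14368 genes. The 11 were Ccnb1, Espl1, Birc5, Ube2c, Bub1b, Top2a, Cdk1, Aurkb, Tpx2, Prc1 and Foxm1. For 30 of 37 all IL6KO libraries lay below all WT libraries, against 9.83% of all genes.

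Ccnb1 had 10.4, 10.1 and 8.80 CPM in IL6KO against 15.9, 16.4 and 17.3 CPM in WT lungs. The groups were well apart, and the log2 change was -0.76 (SE 0.11, adjusted p = 0.0125). Espl1, separase, which cuts the cohesin that holds sister chromatids together, had 11.4, 10.6 and 11.3 CPM in IL6KO against 17.1, 16.8 and 22.1 CPM in WT (-0.74, SE 0.13, adjusted p = 0.0271). Every WT library again stood above every IL6KO library. Aurkb, which varied so widely at day 56, was tight here and changed by -0.57 (SE 0.10, adjusted p = 0.0214). Top2a, with the day 7 values given above, changed by -0.57 (SE 0.11, adjusted p = 0.0399). Cdk1 had 30.0, 27.4 and 22.4 CPM in IL6KO against 37.0, 37.8 and 43.6 CPM in WT (-0.57, SE 0.12, adjusted p = 0.0475). IL6KO replicate 3 was lowest for Cdk1 and Top2a alike. Ube2c, which builds ubiquitin chains for the anaphase-promoting complex, had 10.6, 9.72 and 8.44 CPM in IL6KO against 14.3, 13.7 and 16.5 CPM in WT (-0.63, SE 0.13, adjusted p = 0.0439). Birc5 had 6.03, 5.32 and 4.76 CPM in IL6KO against 8.33, 8.48 and 8.65 CPM in WT (-0.66, SE 0.14, adjusted p = 0.0439). Bub1b, the checkpoint kinase BubR1, had 12.7, 12.05 and 10.5 CPM in IL6KO against 18.3, 15.8 and 18.6 CPM in WT (-0.57, SE 0.12, adjusted p = 0.0439). In all 3 genes the lowest WT library stood above the highest IL6KO library. Tpx2, a spindle assembly factor that activates Aurora A, changed by -0.56 (adjusted p = 0.0399), and Foxm1 by -0.48 (adjusted p = 0.0415). The groups did not overlap for any of these genes.

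Several well-known members were not called. Mki67 had 79.8, 68.7 and 55.02 CPM in IL6KO against 91.9, 85.5 and 90.6 CPM in WT (-0.40, SE 0.12, adjusted p = 0.165), and Plk1 changed by -0.59 (SE 0.15, adjusted p = 0.0888). Bub1 overlapped between the groups (-0.37, SE 0.15, adjusted p = 0.282), as did the motors Kif15, Kif23 and Kif4a. By role, 2 of 3 cyclins and their kinase, 4 of 12 kinases and partners, 2 of 4 genes of protein destruction and chromatid separation, 1 of 4 condensation genes, 1 of 4 cytokinesis genes and the transcription factor were called lower. None of 7 kinesins and neither spindle protein was called. IL6KO replicate 3 was the lowest of its group for 32 of 37 genes and replicate 1 the highest for 32, so the IL6KO lungs also differed among themselves. Of other mitosis genes 4 of 59 were called lower (Iqgap3 -0.71, Depdc1b -1.26, Kifc1 -0.58 and Kif22 -0.59; median of the list -0.42). None of 43 G1/S genes was called in edgeR (median -0.28, 15 with an unadjusted p under 0.05). The inhibitor and little-varying lists had medians of 0.01 each and no calls.

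The count of 11 was not stable. Leaving out any 1 library left 1 to 5 genes called, and Ccnb1 was among them each time. limma-voom called 3 genes (Ccnb1, Espl1 and Aurkb), DESeq2 called 17, and a fit over all 12 lungs called Ccnb1 alone. Beside the change, fibroblast markers summed to 5609 to 6722 CPM in IL6KO against 6664 to 8253 CPM in WT lungs, but 5 of the 9 genes had positive and 4 negative changes (median 0.04) and none was called. Smooth muscle markers summed to 2016 to 2104 CPM in IL6KO against 2261 to 2467 CPM in WT, with all 10 changes negative and 2 called lower. CD8 T and NK cell markers summed to 117 to 151 CPM in IL6KO against 49.5 to 69.9 CPM in WT. Of these 9 markers 5 were called higher, against 0.933% of all genes. The part of these cell types in the result was not tested.

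**Figure D4:**
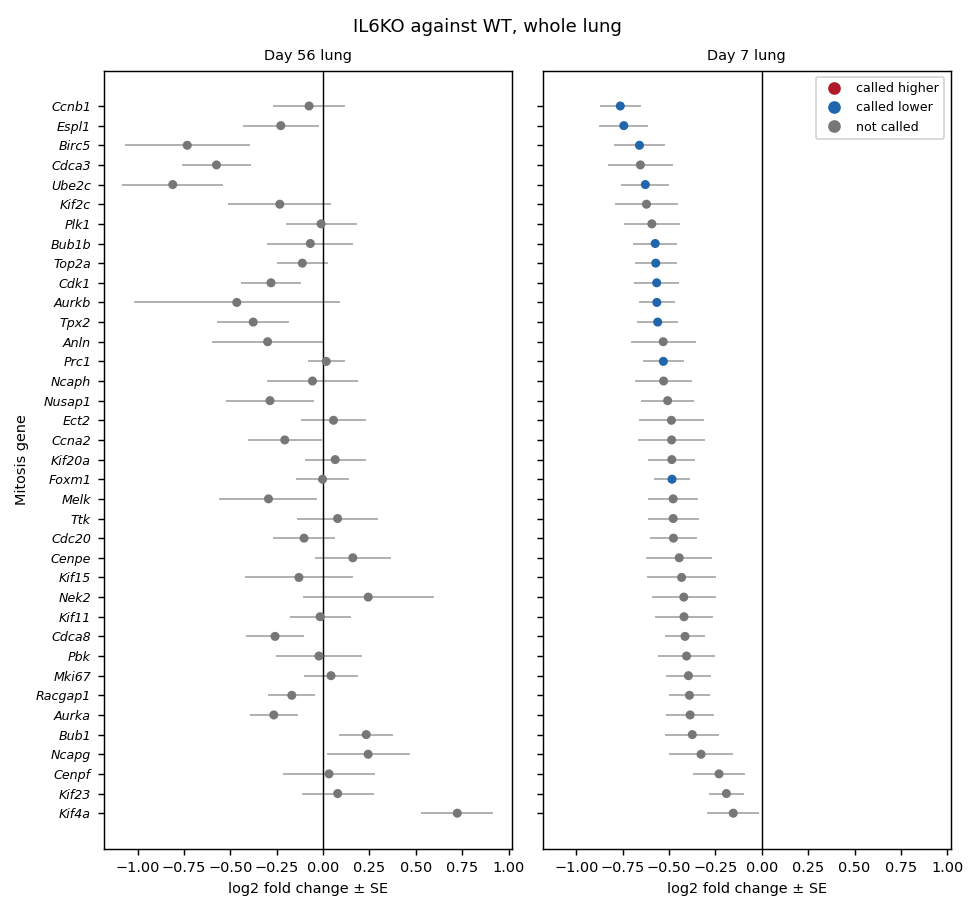
Log2 fold change of each mitosis gene in IL6KO against WT lung, with SE, at day 56 (left) and day 7 (right), ordered by the day 7 value. At day 7 all 37 points are below 0, with 11 called lower. At day 56 they lie on both sides of 0 and none is called.

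At day 56 no mitosis gene was called between IL6KO and WT lung, where 0.0138% of all genes were, 2 in number. That background hung on 1 library: without WT replicate 3, 1268 genes were called, still with none of the 37. DESeq2 and limma-voom called 0 of the 37 as well. In edgeR 3 of the 37 had an unadjusted p under 0.05, as did 1649 of all 14475 genes tested. The median was -0.08, with 12 positive and 25 negative changes. The groups did not overlap for 7 of 37 genes, against 16.2% of all genes. Mki67 had 24.5, 31.6 and 33.9 CPM in IL6KO against 26.4, 26.4 and 33.5 CPM in WT, which overlapped (0.04, SE 0.15, adjusted p = 0.913). Kif4a had the smallest p (0.72, SE 0.19, adjusted p = 0.401), with the values given above and no overlap. Ube2c changed by -0.81 (SE 0.27, adjusted p = 0.414), and Cdca3 by -0.57 (SE 0.18, adjusted p = 0.414). The spread of Aurkb in WT gave it an SE of 0.55. No gene was called in the genotype by day interaction, which asks whether the genotype change differs between day 56 and day 7 (0% of all genes). The interaction was positive for 35 of 37, with a median of 0.40, against 0.00 over all genes. Of the 37, 13 had an unadjusted p under 0.05 in edgeR, as did 1043 of all 13865 genes tested. All 37 genotype changes were negative at day 7, so this count of positives is not separate from the day 7 result. Ccnb1 was 0.70 (SE 0.19, adjusted p = 0.467). DESeq2 and limma-voom called 0 of the 37 in it too. Without WT day 56 replicate 3, 597 genes of all were called, and Ccnb1 was the 1 mitosis gene among them. In the other settings tried, no mitosis gene was called.

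Most genes differed between CD4 isolates and whole lung, and mitosis genes did so in both directions. In each genotype a smaller share of mitosis genes than of all genes was called. In IL6KO rats 16 of 37 mitosis genes were higher and 10 lower in the isolates, against backgrounds of 36.4% higher and 43.2% lower among all genes. In WT rats 6 (16.2%) were higher and 12 (32.4%) lower, against backgrounds of 37.7% and 43.6%. In either direction, 48.6% of mitosis genes were called in WT, against 81.4% of all genes. In IL6KO the share called higher was above its background, and the share called lower was below it. With library totals in place of TMM scaling the splits were 10 higher and 10 lower in IL6KO and 3 higher and 20 lower in WT. That scaling moved the median of all genes to -0.32 in IL6KO and -0.43 in WT, against -0.12 in both under TMM. The members' medians under TMM were 0.24 in IL6KO and -0.22 in WT. Isolates and whole lung lie in separate count tables, which share 22071 symbols.

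Mki67 had 150.4 and 157 CPM in IL6KO isolates against 79.8, 68.7 and 55.02 CPM in IL6KO lungs, and 131 and 183 CPM in WT isolates against 91.9, 85.5 and 90.6 CPM in WT lungs. Every isolate was above every lung (1.37, SE 0.15 in IL6KO and 1.12, SE 0.15 in WT, both called). Top2a was called higher by 0.94 in IL6KO and 0.58 in WT, though not in WT under library totals. The motor Kif15 (1.17 in IL6KO and 1.09 in WT) and the condensin subunit Ncaph (1.14 in IL6KO and 0.92 in WT) were also called higher. Anln had 2.77 and 3.05 CPM in IL6KO isolates against 17.4, 14.3 and 11.8 CPM in IL6KO lungs, and 1.80 and 1.70 CPM in WT isolates against 19.3, 18.1 and 25.6 CPM in WT lungs. Anln thus stood lowest relative to lung (-2.12, SE 0.24 in IL6KO and -3.27, SE 0.26 in WT), and its gene overlaps Matcap2. Other cytokinesis genes were called lower too: Prc1, which bundles central spindle microtubules, by -0.55 in IL6KO and -1.38 in WT, and Ect2, the activator of the contractile ring, by -0.72 in IL6KO and -1.17 in WT. Beside this, fibroblast markers summed to 117 to 137 CPM in IL6KO and 165 to 168 CPM in WT isolates, against 5609 to 6722 CPM in IL6KO and 6664 to 8253 CPM in WT lungs. Cdk1 was called lower (-0.76 in IL6KO and -1.09 in WT), while its partner Ccnb1 was called higher (1.10 in IL6KO and 0.43 in WT). The WT call of Ccnb1 was lost under library totals (0.12), under a stricter filter on low levels and without several single libraries, and the WT groups overlapped. By role, the condensation group had a median of 1.04 in IL6KO and 0.75 in WT, and cytokinesis -0.64 in IL6KO and -1.28 in WT. Of 43 G1/S genes, 33 were called higher in each genotype, among them Pcna, the replication clamp, by 2.04 in IL6KO and 2.03 in WT. In IL6KO the count of 26 called mitosis genes was 17 without IL6KO isolate replicate 1.

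**Figure D5:**
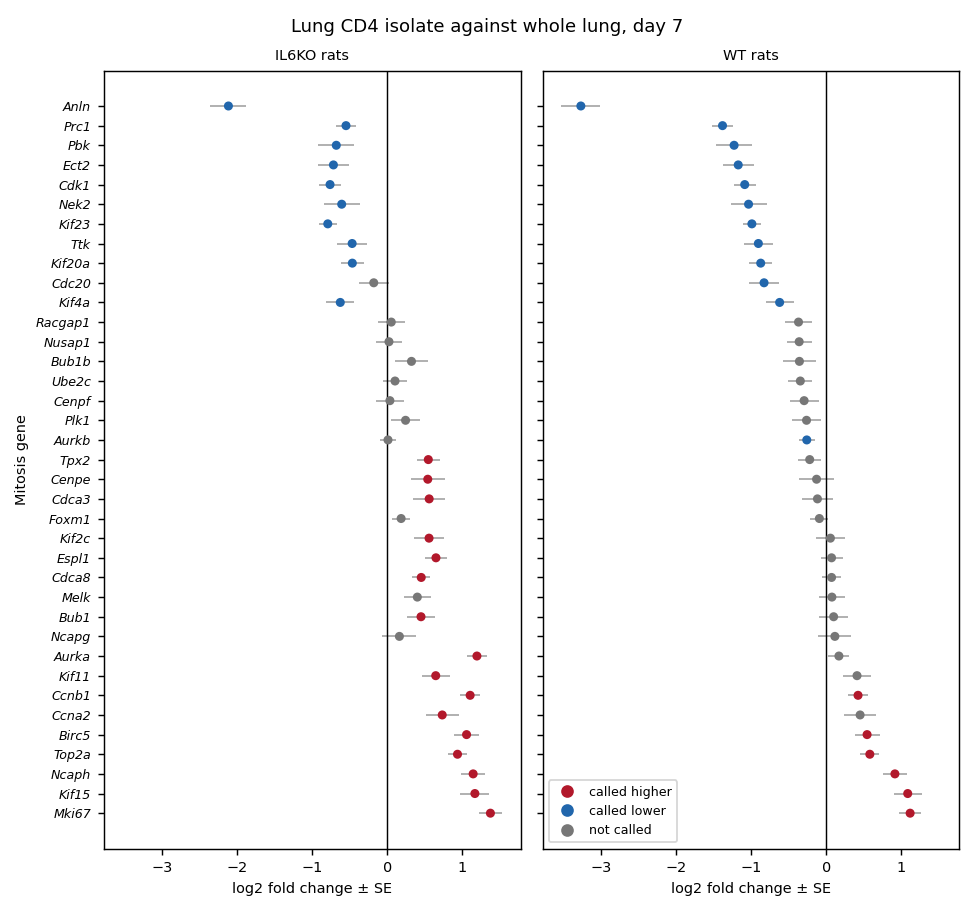
Log2 fold change of each mitosis gene in the lung CD4 isolate against whole lung at day 7, with SE, in IL6KO rats (left) and WT rats (right), ordered by the WT value. Anln lies far below the rest in both, and Mki67 and Kif15 lie highest in WT.

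Within the CD4 isolates, 1 mitosis gene of 37 was called between the genotypes, against 6.4% of all genes. Aurka, the kinase that builds the spindle poles, had 24.9 and 27.2 CPM in IL6KO isolates against 15.7 and 15.2 CPM in WT isolates. The groups were apart, and the change was 0.72 (SE 0.12, adjusted p = 0.0197). Without WT replicate 1 the change was 0.76 (adjusted p = 0.117) and without WT replicate 2 it was 0.69 (adjusted p = 0.114). These fits leave 1 WT library, which is assumed to vary like the IL6KO pair. Adjusted p-values near the threshold may be too small in this fit of 2 against 2 libraries and in day 7 lung. Aurka overlaps Fam210b by 89 bases in the rat annotation. The median over the 37 genes was 0.00, and Mki67 (-0.06), Top2a (-0.13), Ccnb1 (0.00) and Cdk1 (-0.16) were not called. WT replicate 1 was the lower WT library for 34 of 37 genes. Beside this, macrophage markers summed to 10180 to 14468 CPM in IL6KO isolates against 9252 to 9394 CPM in WT isolates, and erythroid markers to 7488 to 15390 CPM in IL6KO against 2410 to 3610 CPM in WT isolates. Marker calls between the isolates went both ways, where 3.5% of all genes were called higher and 2.91% lower in IL6KO. Of 13 macrophage markers 4 were called higher, of 11 erythroid markers 3 higher and 1 lower, and of 9 B cell markers 1 higher. Called lower were 7 of 12 alveolar epithelium, 3 of 7 smooth muscle, 3 of 12 T cell and 3 of 9 CD8 T and NK cell markers. So were 2 of 10 endothelial, 1 of 9 plasma cell and 1 of 3 mesothelial and heart muscle markers. Their part in the Aurka result was not tested.

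The genotype change differed between isolates and whole lung for 2 of 37 genes, both higher in the isolates, with a background of 1.88%. These were Aurka (1.02, SE 0.19, adjusted p = 0.0113) and Prc1 (0.83, SE 0.19, adjusted p = 0.0247). Prc1 had 30.8 and 32.3 CPM in IL6KO against 20.7 and 26.7 CPM in WT isolates, and 58.6, 56.6 and 43.5 CPM in IL6KO against 76.7, 74.4 and 78.3 CPM in WT lungs. IL6KO lay above WT in the isolates and below it in the lungs. The isolate change of Prc1 was itself not called, and the lack of overlap there rests on 2 against 2 libraries. The interaction was positive for 36 of 37 genes, with a median of 0.42, against -0.11 over all genes. All 37 changes were negative in day 7 lung and their median was near 0 in the isolates. This count therefore largely restates the lung result. Without any 1 of 3 CD4 libraries (WT replicate 1, IL6KO replicate 1 or IL6KO replicate 2) Aurka alone was called. Without WT CD4 replicate 2, 6 genes were called.

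In mouse spleen, where Ttk, Anln and Espl1 were too low to test, no mitosis gene of 34 tested was called between tdTomato-positive and tdTomato-negative CD4 cells, where 0.00902% of all genes were. DESeq2 and limma-voom called 0 as well. Of the 34 only Ncapg had an unadjusted p under 0.05 in edgeR, as did 395 of all 11083 genes tested. These fits did not pair the fractions by mouse, and the changes below come from the unpaired edgeR fit. With the mouse as a block, 0 genes of the list were called too. Levels were low and uneven, with a median coefficient of variation of 41.5% in tdTomato-positive and 47.0% in tdTomato-negative cells, against 9.47% in WT day 7 lung. Mki67 had 8.83, 5.49 and 12.1 CPM in tdTomato-positive against 3.08, 6.02 and 5.41 CPM in tdTomato-negative cells. They overlapped (0.84, SE 0.42, adjusted p = 0.998). Top2a had 23.1, 17.6 and 21.0 CPM in tdTomato-positive against 10.3, 10.4 and 22.0 CPM in tdTomato-negative cells (0.50, SE 0.30, adjusted p = 0.998). Ncapg, a condensin subunit, had 0.750, 11.2 and 2.93 CPM in tdTomato-positive against 1.65, 0.188 and 1.75 CPM in tdTomato-negative cells, so 1 library carried most of its difference (1.99, SE 0.92). Nek2, a centrosome kinase, had the most negative change (-1.58, SE 0.76). Ccnb2, the other B-type cyclin, had 4.83, 9.84 and 5.32 CPM in tdTomato-positive against 1.65, 7.05 and 6.21 CPM in tdTomato-negative cells (0.39, SE 0.51).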

How the data were processed

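Raw gene counts were used as the authors deposited them, 1 column per library. GRCm38, a mouse build, is the build the submitters' processing notes give, for the rat samples too. The sources used here do not state aligner, counter or annotation. The members and gene lists were chosen with earlier results of these data known.

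Each comparison was fitted over all genes after filterByExpr with TMM scaling and edgeR 4.0.16 (glmQLFit and glmQLFTest, robust, R 4.3.3). Adjusted p-values come from that quasi-likelihood test, by Benjamini-Hochberg across every gene tested, and a gene was called under 0.05. CPM are counts scaled by the library total. SE is that of the log2 fold change. Days were fitted over 12 lungs on 20230 shared symbols, and isolates with day 7 lungs on 22071. Named genes were 8 representatives of the roles, up to 4 further called members in each direction by smallest p (2 where none was called), and members against the majority. Other members (such as Anln and Birc5 between days, and Ccnb2 in spleen) were named after their values were seen. Settings tried were DESeq2 1.42.0, limma-voom (limma 3.58.1), RLE, library totals, other filters, a replicate block, wider fits and leaving out each library.

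The fits were tested on simulated counts. The larger planted changes were mostly recovered, and p-values of unchanged genes were calibrated. All planted changes were larger than those of the mitosis genes between genotypes in day 7 lung. Recovery of changes as small as those was not tested. With spread varying gene by gene, the share of false calls exceeded the threshold, most in the CD4 fit and also in day 7 lung; with spread on the fitted trend it stayed close to it. Total counts ranged from 8737138 to 23590070. By the labels, splenic fractions with equal numbers share a mouse, and their deviations correlated at 0.03, 0.12 and 0.12 across genes. Promoter sequences are RefSeq's for GRCr8.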

Additional observations from a re-analysis of the deposited data

Results flagged for a closer look

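The IL6KO change differed between lung CD4 isolates and whole lung at day 7 for Aurka by 1.02 and for Prc1 by 0.83 on the log2 scale, both by the genotype by tissue interaction in edgeR's quasi-likelihood test. Aurka changed by 0.72 in isolates and -0.39 in lung, and Prc1 by 0.39 and -0.53. Of these changes only Aurka in isolates and Prc1 in lung were called. Isolates and lungs come from separate tables, and the isolates carry macrophage RNA that is higher in IL6KO (Csf1r 1532 to 1541 CPM against 870.0 to 899 CPM in WT). Its part was not tested.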

How the results depend on the processing

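Limits: 2 or 3 libraries per group, separate tables for days and tissues, and wide spread between the spleen libraries limit these results. Over all settings, 2016 values of named genes kept direction and call, 118 lost a call, 11 gained 1 and 67 reversed sign. The day counts stayed at 34 to 36 genes lower in every setting that tested at least 37 genes and at 33 with a mean of at least 5 CPM, where 35 were tested. The count of genes lower in IL6KO day 7 lung, 11, was 17 with DESeq2, 3 with limma-voom, 1 in the fit of 4 groups, and 1 to 5 without single libraries. Interaction by tissue gave 4 genes with library totals, DESeq2 and a mean of at least 5 CPM, and 1 to 6 without single libraries. The CD4 genotype count was 0 without either WT replicate (Aurka 0.66 to 0.79 over the 4 libraries left out), the interaction by day 1 without WT day 56 replicate 3, and the IL6KO isolate count 17 to 26 without single libraries. The cause of these moves was not tested beyond the fewer samples of the leave-one-out fits.

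None of the values whose sign reversed was called in the reported fits. Foxm1 at day 56 (IL6KO against WT) became 0.0063 (RLE), 0.0144 (library totals), 0.0057 (DESeq2), 0.0011 (mean of at least 5 CPM) and 0.0024 (fit of 4 groups). Plk1 there became 0.0073 (library totals) and 0.0042 (replicate block). In CD4 isolates Bub1 became -0.0275 and Ccnb1 -0.0856 (fit of 4 groups), Ccnb1 -0.0051 (mean of at least 5 CPM), and Plk1 0.0020 (RLE), 0.0229 (library totals), 0.0037 (DESeq2), 0.0090 (limma-voom), 0.0199 (no filter) and 0.0186 (replicate block). In spleen Cdk1 became 0.1017 (limma-voom) and 0.1784 (replicate block, the same mouse). Aurkb between days in WT became -0.0099 (limma-voom). Between isolate and lung, Bub1 in WT became -0.2054 (library totals) and -0.0406 (mean of at least 5 CPM). In IL6KO, Aurkb became -0.0034 (RLE), -0.1854 (library totals), -0.0035 (DESeq2), -0.0440 (mean of at least 5 CPM) and -0.0067 (replicate block), and Foxm1 -0.0107 (library totals).

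Without single libraries, genes whose sign reversed ranged as follows. In the genotype change at day 56, Aurkb from -0.87 to 0.34, Ccnb1 from -0.18 to 0.0331, Foxm1 from -0.0591 to 0.0721, Mki67 from -0.0458 to 0.16, Plk1 from -0.13 to 0.0635. In the day change in WT, Aurkb from -0.53 to 0.68. In the interaction by day, Aurkb from -0.29 to 0.90, Birc5 from -0.41 to 0.18. In isolate against lung in IL6KO, Aurkb from -0.0090 to 0.0542. In the genotype change in isolates, Bub1 from -0.20 to 0.38, Ccnb1 from -0.16 to 0.19, Cdk1 from -0.31 to 0.0196, Foxm1 from -0.28 to 0.0213, Mki67 from -0.26 to 0.19, Plk1 from -0.24 to 0.30, Top2a from -0.29 to 0.0401. In isolate against lung in WT, Bub1 from -0.18 to 0.39, Plk1 from -0.52 to 0.0111. In spleen, Bub1 from -0.93 to 0.74, Ccnb1 from -0.45 to 0.28, Ccnb2 from -0.0101 to 0.72, Cdk1 from -0.64 to 1.21, Foxm1 from -0.18 to 0.56.
With the replicate number as a block, 11 genes were lower in day 7 lung, of which 10 were shared with the fit without it (Cdk1 lost its call). It called 1 gene in isolates, 0 at day 56 and in spleen, and 22 of the 26 between IL6KO isolate and lung, without Bub1. Rat replicate numbers do not mark shared animals by the labels, and their deviations correlated at 0.06, 0.08 and 0.26 in day 7 lung and at -0.16, -0.07 and -0.03 at day 56, and at -4e-04 in isolates.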
